A study of Mus musculus with 7 samples.

Results

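The cells described here are virus-specific spleen T cells of day 7 that carried at least 1 Cxcr6 UMI and no Cxcr5 UMI, a gate for T helper type 1 (Th1)-like cells. A UMI (unique molecular identifier) marks 1 captured mRNA molecule. Barcodes counted as cells when they held 500 or more genes and no more than 10% of UMIs from mitochondrial genes. Of 16427 cells in the 7 libraries, 5751 were GP66+ cells of day 7, and 1358 of these met the gate. They comprised 354 of 2261 wild type cells, 315 of 2157 cells of the Cre control and 689 of 1333 cells with Thpok deleted. The cells were chosen by their measured Cxcr6 and Cxcr5 UMIs, so the levels of both genes and the number of gated cells are descriptions and were not tested.

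All 3 libraries came from spleens of C57bl/6 mice given lymphocytic choriomeningitis virus (LCMV) of the Armstrong strain, which causes an acute infection. The sorted cells were CD44high and bound GP66:I-Ab tetramer, a class II molecule carrying the viral peptide GP66, which selects virus-specific helper cells. The d7_GP66 library came from wild type mice and its labels name a CD4+ gate. The d7_WT library came from Ox40-Cre+ Thpokwt/wt RosaYFP+ mice, called the Cre control here, and the d7_KO library from Ox40-Cre+ Thpokfl/fl RosaYFP+ mice, called the deleted library. For these 2 libraries the labels name a sort on the YFP reporter and no CD4+ gate. The Ox40 promoter is active in activated T cells, so Cre acts after a T cell has been stimulated. Each genotype of day 7 is 1 library, and the labels do not say how many mice went into a library. The p-values below therefore rest on differences between libraries that are not replicates of each other. At day 7 these are the wild type and the Cre control, which differ in Cre, reporter sort and named CD4+ gate. Part of their spread may also be technical.

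Thpok, encoded by Zbtb7b, is a zinc finger transcription factor that directs developing T cells to the CD4 helper lineage and restrains genes of the CD8 cytotoxic lineage, among them targets of the factor Runx3. Responding CD4 T cells in LCMV infection divide mainly into Th1 cells, which make interferon gamma and help infected tissues, and follicular helper (Tfh) cells, which carry the chemokine receptor CXCR5 and help B cells. CXCR6 is the receptor of the chemokine CXCL16 and is carried by Th1 cells and by effector CD8 T cells. The comparison asks which genes differ when cells of the same gate lack Thpok.

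Depth was similar across the gated cells. The gate held 2470211 UMIs in the wild type, 2126457 in the Cre control and 4766203 in the deleted library, with medians of 5946, 6099 and 5998 UMIs per cell. Of the cell barcodes, 1 to 3 were shared between any pair of libraries, and none of these lay in the gate of both. Zbtb7b was counted with 61 and 52 UMIs in the gated cells of the control libraries and with 0 in the deleted library. The control libraries stood apart from each other: 834 of 9142 genes tested differed at least 2-fold between them, 325 higher in the wild type and 509 higher in the Cre control. Jund stood at 47.0 CPM in the wild type, 798 in the Cre control and 596 in the deleted library, and Rnaset2a at 26.6, 180 and 199 CPM. CPM are counts scaled to a fixed library total, here with edgeR's TMM factors between libraries unless called unscaled. The wild type gate also held more B cell and myeloid transcripts: Cd74 was at 54.7, 5.31 and 0.651 CPM and Lyz2 at 48.6, 0.483 and 0.868 CPM. A UMI of Cd74, H2-Aa, Cd79a or Lyz2 was found in 19 wild type, 9 Cre control and 9 deleted gated cells. The summed CPM of the B cell list were 103, 10.1 and 11.3, of the natural killer list 46.3, 10.1 and 13.2, and of the myeloid list 282, 183 and 215. Those of the gamma-delta and innate-like list were 1.93, 0.483 and 0 and of the erythroid list 0.385, 5.79 and 3.69. The part of other cell types in the differences below was not tested.

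The Th1-like name was checked against Cxcr5+ Cxcr6- cells of the same libraries. With 5 CPM added to each value, 16 of 29 genes of the Th1 list were at least 2-fold higher in the Cxcr6+ gate in both control libraries and none was lower in both. Of 22 Tfh genes, 12 were at least 2-fold lower in both and none was higher. Id2, a factor of effector cells, stood at 488 CPM in the Cxcr6+ gate and 87.8 CPM in the Cxcr5+ gate of the wild type, and at 656 and 136 CPM in the Cre control, scaled over both gates. The Tfh factor Tox2 showed the opposite order, at 22.4 and 110 CPM in the wild type and 17.5 and 118 CPM in the Cre control. In the deleted library 6 of the 29 Th1 genes were 2-fold higher in the Cxcr6+ gate and 2 of the 22 Tfh genes lower, and there the Cxcr5+ gate held 33 cells. The control gate thus held 16 of the 29 Th1 genes at a higher level, but not all defining ones. Tbx21, the gene of the Th1 factor T-bet, was less than 2-fold higher, at 40.6 and 22.9 CPM in the wild type and 46.3 and 26.7 in the Cre control. Cxcr3 was not higher, at 280 and 299 CPM and at 174 and 246. Of 27 CD8 and cytotoxic genes 16 were also 2-fold higher in both controls, so the check does not set Th1 genes apart from cytotoxic ones. The deleted cells are called here by the gate, Cxcr6+ Cxcr5-, since they differ less from their Cxcr5+ counterparts.

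The gate held 15.7% of GP66+ cells in the wild type (exact Clopper-Pearson 95% interval 14.2 to 17.2), 14.6% (13.1 to 16.2) in the Cre control and 51.7% (49.0 to 54.4) in the deleted library. These intervals cover counting error only. When every cell was thinned to 2000 UMIs, which left out 55, 32 and 27 shallower cells, the shares were 9.75%, 8.80% and 26.8%. With at least 2 Cxcr6 UMIs required they were 9.60%, 8.39% and 29.6%, and among cells with no Cd8a or Cd8b1 UMI 14.5%, 13.3% and 34.6% of all GP66+ cells were gated. The converse gate, Cxcr5+ Cxcr6-, held 29.8%, 24.2% and 2.48% of cells. In each of these counts the deleted library had the largest Cxcr6+ gate and the control libraries lay close together. Within the gate Cxcr6 itself stood at 411, 401 and 340 unscaled CPM, and 38.7%, 42.5% and 42.8% of gated cells had exactly 1 Cxcr6 UMI.

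**Figure D1:**
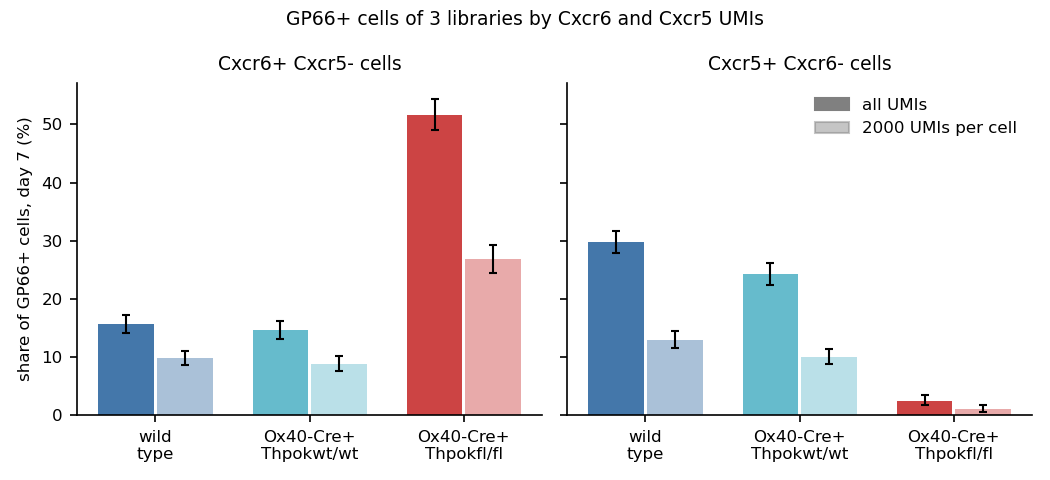
Share of day 7 GP66+ cells (y axis, %) that were Cxcr6+ Cxcr5- (left) or Cxcr5+ Cxcr6- (right) in each library, from all UMIs (dark bars) and with each cell thinned to 2000 UMIs (pale bars), with exact 95% binomial intervals. The deleted library holds 51.7% of its cells in the left gate against 15.7% and 14.6% in the controls, and 2.48% in the right gate.

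UMIs were summed over the gated cells of each library and the deleted library was set against both controls with edgeR's quasi-likelihood test. Of 9142 genes tested, 0 (0%) passed a Benjamini-Hochberg adjusted p of 0.05. At an unadjusted p under 0.05 edgeR gave 178 genes higher and 282 lower, and DESeq2 called 14 higher and 27 lower after adjustment. The smallest adjusted p of edgeR was 0.0999, for Wdr95, Eomes, Ifitm3 and Tnfsf8. The test had 1 residual degree of freedom, from the difference between the controls. Across 11 other settings edgeR or DESeq2 called 0 to 143 genes higher and 0 to 182 lower, and Ccl5, Cd160, Ctla2a, Ctla2b, Eomes, Gzmk, Ifi204, Klrk1, Mir155hg and Wdr95 were called in 7 of the 11. A rule of size, with no test, asked for at least a 2-fold difference from each control in the same direction: 106 genes (1.16%) were higher in the deleted library and 170 (1.86%) lower. All of the 14 and 27 genes that DESeq2 called met the size rule. Left at 1 control, the rule gave 240 higher and 262 lower genes without the wild type, and 576 and 435 without the Cre control.

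**Figure D2:**
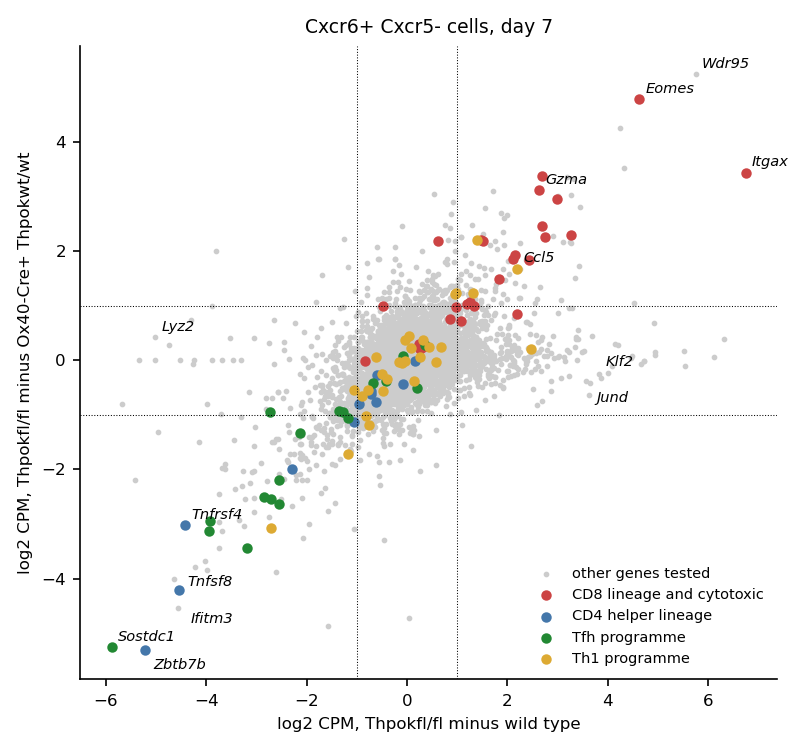
Each point is a gene in the gated cells, with the log2 CPM difference of the deleted library from the wild type on the x axis and from the Cre control on the y axis. Dotted lines mark 2-fold. Cytotoxic genes (red) lie mostly in the upper right and Tfh genes (green) mostly in the lower left, while genes such as Jund differ from the wild type alone.

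Genes of the CD8 and cytotoxic lineage formed the largest group on the higher side. Of 28 list members, 27 had enough UMIs to be tested, 16 were at least 2-fold higher than each control and 0 were 2-fold lower, and 25 lay above both controls. The median log2 difference of the 27 was 1.68, against 0.00 over all genes tested. Of all genes tested 33.0% lay above both controls, and 1.16% were 2-fold higher than each. Under the other settings of the size rule 13 to 19 members were higher and 0 lower. Gzma, which encodes the protease granzyme A, stood at 92.9 CPM in the wild type (exact Poisson 95% interval 81.5 to 105), 66.1 (55.5 to 78.2) in the Cre control and 580 (558 to 602) in the deleted library. Its log2 difference was 2.86 ± 0.24 (standard error) with an adjusted p of 0.151 in edgeR and 9.01e-09 in DESeq2. The deleted library lay far above both controls, whose intervals did not overlap but lay near each other. Gzmk, for granzyme K, stood at 37.8, 53.6 and 259 CPM (log2 difference 2.51), but its gene lies over the oppositely oriented Esm1, at 2.70, 5.79 and 28.2 CPM. Gzmb, for granzyme B and abundant in all 3 libraries, stood at 702, 897 and 1476 CPM (log2 difference 0.88 ± 0.21, edgeR adjusted p 0.600), less than 2-fold above the Cre control. Prf1, for the pore protein perforin, stayed low at 6.94, 1.93 and 11.1 CPM.

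The receptors that natural killer cells and effector CD8 T cells share showed the same order. Klrd1, which encodes CD94, stood at 48.2, 29.4 and 313 CPM in the wild type, Cre control and deleted library (log2 difference 3.00 ± 0.31, edgeR adjusted p 0.153). Klrk1, for the activating receptor NKG2D, stood at 12.3, 14.5 and 82.9 CPM, and Klrg1, a marker of short-lived effector cells, at 6.55, 13.5 and 68.5 CPM. Klrc1, for the inhibitory partner of CD94, stood at 106, 63.7 and 297 CPM, whereas its near-identical neighbour Klrc2 lay between the controls at 45.5, 15.9 and 32.5 CPM, and reads of this pair are not securely told apart. These genes lie together on chromosome 6 of GRCm38: BC035044 at chr6:128849090-128891126 on the minus strand, Klrd1 at chr6:129591782-129598775 on the plus strand, Klrk1 at chr6:129610323-129623864 and Klrc1 at chr6:129666015-129678973, both on the minus strand. BC035044 was among the genes with the largest difference, with 0, 1 and 57 UMIs. Of the 8 members of the natural killer list Ncr1, Klra4 and Klra7 had 0 UMIs in the gate of all 3 libraries and Klra8 had 0, 0 and 1. Klre1, which is also in the cytotoxic list, had 3, 3 and 34 UMIs, whereas Tyrobp had 53, 7 and 16 and Fcer1g 60, 11 and 7. The chemokine receptor Cx3cr1 stood at 8.10, 12.5 and 46.4 CPM, and Cd160, a receptor of cytotoxic cells, at 40.1, 33.8 and 141 CPM.

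Eomes, the T-box factor of effector and memory CD8 T cells, was all but uncounted in the controls. It had 3 and 2 UMIs there and 203 in the deleted library, or 1.16, 0.965 and 44.0 CPM (log2 difference 5.31 ± 0.36, edgeR adjusted p 0.0999, range over 11 other settings 2.43e-26 to 0.130). Itgax, which encodes the integrin CD11c and is carried by dendritic cells and some effector T cells, had 0, 12 and 319 UMIs, and the deleted library was at least 59.8-fold above the wild type, with 3 UMIs taken as the floor. Of the myeloid markers Csf1r, S100a8, S100a9 and Adgre1 had at most 3 UMIs in any library and Lyz2 was highest in the wild type, while Cd68, a lysosomal protein, was highest in the deleted library at 12.3, 11.1 and 27.1 CPM. Itgam, of the same list, stood at 1.81, 1.76 and 14.2 unscaled CPM over all day 7 GP66+ cells. Of 6 tested list members 1 was 2-fold higher than each control and 1 lower, beside 1.16% and 1.86% of all genes tested. Without cells holding a B cell or myeloid UMI these were 3 and 0, beside 116 and 170 of 9142 genes. The coreceptor genes Cd8a and Cd8b1, neighbours at chr6:71373427-71379173 and chr6:71322788-71337494 on the plus strand, stood at 4.24, 4.34 and 38.2 CPM and at 23.5, 29.9 and 85.2 CPM. Runx3 itself, the factor that drives the CD8 programme, was less than 2-fold apart, at 126, 134 and 159 CPM. Nkg7, a granule protein and the most abundant list member, stood at 1619, 1740 and 2931 CPM. Serpinb9, the inhibitor of granzyme B, was the 1 member below both controls, at 392, 220 and 218 CPM.

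**Figure D3:**
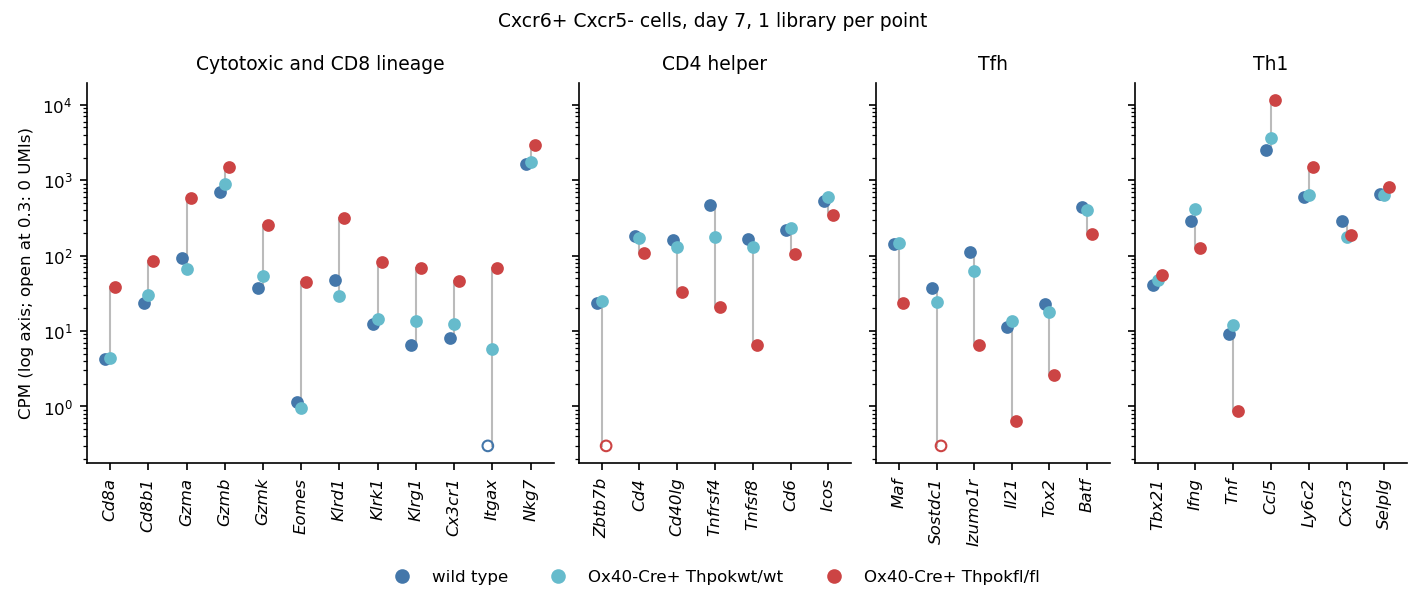
CPM of named genes in the gated cells (log axis), 1 point for each library, with open points for 0 UMIs. In the cytotoxic set the deleted library (red) is the highest point for each gene shown, and in the helper and Tfh sets it is the lowest for each gene shown. The genes are a selection from the lists. Members not shown include Klrc2 and Serpinb9 (cytotoxic), Cd28 (helper) and Sh2d1a (Tfh), which do not share the order.

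Start-site sequences of Gzma and Itgax hold a Runx core motif, whereas those of Eomes, Cd8a and Gzmk do not. The first 3 of these are shown for comparison. They are RefSeq promoters of GRCm38.p6, 250 bases before to 50 after a gene's start, at chr13:113100932-113101231 on the minus strand for Gzma, chr7:128129300-128129599 on the plus strand for Itgax and chr9:118477939-118478238 on the plus strand for Eomes. Capitals mark the letters ACCACA or their reverse complement TGTGGT, searched on both strands.
Gzma: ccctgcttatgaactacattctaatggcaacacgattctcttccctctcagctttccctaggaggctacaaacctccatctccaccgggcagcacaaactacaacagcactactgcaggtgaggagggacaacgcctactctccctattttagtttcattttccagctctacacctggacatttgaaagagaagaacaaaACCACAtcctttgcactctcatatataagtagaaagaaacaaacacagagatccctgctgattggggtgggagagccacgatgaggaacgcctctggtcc
Itgax: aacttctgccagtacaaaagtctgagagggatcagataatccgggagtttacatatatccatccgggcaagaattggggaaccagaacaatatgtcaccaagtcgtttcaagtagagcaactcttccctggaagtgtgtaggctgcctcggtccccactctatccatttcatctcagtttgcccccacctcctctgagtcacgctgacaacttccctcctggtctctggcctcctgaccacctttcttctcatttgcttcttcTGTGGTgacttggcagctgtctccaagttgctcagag
Eomes: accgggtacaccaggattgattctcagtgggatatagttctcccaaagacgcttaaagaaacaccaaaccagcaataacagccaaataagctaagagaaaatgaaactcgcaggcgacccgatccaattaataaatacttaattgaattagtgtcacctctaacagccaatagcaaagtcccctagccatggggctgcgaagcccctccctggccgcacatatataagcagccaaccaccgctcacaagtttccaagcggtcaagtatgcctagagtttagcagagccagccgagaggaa
In Gzma the match begins 50 bases before the start, and in Itgax it lies after it. Of the 106 genes 2-fold higher in the deleted library 78 had a promoter in the table, and 16 of these (20.5%) held the motif. Of the 170 lower genes 128 had a promoter and 23 (18.0%) held it, beside 15.2% of the 7024 genes tested with a promoter and 18.9% of all 27025 genes in the table. By promoter the share over the table was 16.8% of 32851. A match describes the letters in this window and is no evidence of binding.

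Several of these transcripts were counted together under single cell barcodes. In the deleted library 49.3% of gated cells had a Gzma UMI, against 10.5% in the wild type and 11.1% in the Cre control, and 31.4%, 6.05% and 4.81% after thinning to 2000 UMIs. In Cxcr5+ Cxcr6- cells of the controls, with medians of 6147 and 5760 UMIs, the share was 3.41% and 2.29%. Klrd1 was found in 20.6%, 11.1% and 64.4% of wild type, Cre control and deleted gated cells, and Eomes in 0.847%, 0.635% and 22.1%. In the Cxcr5+ cells of the controls Klrd1 was found in 4.30% and 2.49% and Eomes in 0.593% and 1.15%. In the 33 Cxcr5+ cells of the deleted library itself the shares were 24.2% for Gzma, 51.5% for Klrd1 and 33.3% for Eomes. Each share of the gated deleted cells thus lay above those of both controls, while for Eomes it lay below that of the library's own Cxcr5+ cells. Of 8 cytotoxic genes, Gzma, Gzmk, Eomes, Klrd1, Klrg1, Klrk1, Cx3cr1 and Itgax, chosen after their values were seen, 1.40% of thinned wild type, 1.07% of Cre control and 24.0% of deleted cells showed at least 3, and 79.5%, 79.1% and 14.3% showed none. Without thinning, 4.24%, 3.81% and 64.2% showed at least 3. Barcodes with at most 50 UMIs, which hold mostly free RNA, gave Gzma at 11.8, 25.8 and 640 unscaled CPM in the 3 libraries. These barcodes held 354925 of the 9251719 UMIs of the deleted library, and the part of free RNA in the shares was not tested.

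**Figure D4:**
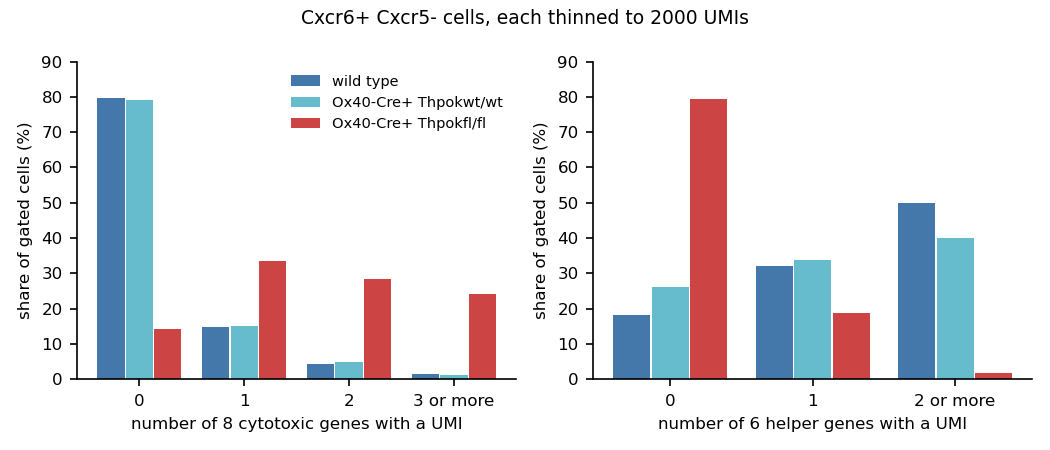
Share of gated cells (y axis, %), each thinned to 2000 UMIs, by the number of 8 cytotoxic genes (left) and of 6 helper genes (right) that had a UMI in the cell. In the deleted library 24.0% of cells show at least 3 of the 8 cytotoxic genes and 79.4% show none of the 6 helper genes, against at most 1.40% and 26.2% in the controls. Both sets were chosen after their values were seen.

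Since no CD4+ gate is named for the Cre control and the deleted library, gated cells were split by their coreceptor UMIs. Cells with a Cd4 and no Cd8a or Cd8b1 UMI made up 66.4%, 58.4% and 31.8% of the gate in the wild type, Cre control and deleted library. Cells with a Cd8a or Cd8b1 and no Cd4 UMI made up 3.11%, 4.76% and 17.6%, and cells with both 4.24%, 4.44% and 15.5%. In cells thinned to 2000 UMIs the shares were 34.0%, 28.3% and 15.4% for Cd4 only, 1.86%, 4.28% and 14.0% for Cd8 only and 0.930%, 2.14% and 2.29% for both. The deleted gate thus held a smaller share of Cd4-only and a larger share of Cd8-only cells at either depth, while the share with both was level with the Cre control once thinned. Among its 219 Cd4-only cells Gzma stood at 589 unscaled CPM and Ccl5 at 10273, beside 638 and 11002 in its 121 Cd8-only cells. Klrd1 stood at 274 and 420 in these classes and the helper gene Cd40lg at 27.1 and 27.9. Within the deleted library the Cd4-only and Cd8-only cells were thus nearer to each other than to the Cd4-only cells of the controls, where Gzma was at 36.2 and 62.2 and Cd40lg at 168 and 130. The 11 Cd8-only wild type cells had Gzma at 1488 and Cd74 at 1411 unscaled CPM. Without any cell holding a Cd8 UMI, edgeR called 9 genes higher and 14 lower, and Gzma passed with a log2 difference of 3.72 (adjusted p 0.0279).

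The list of CD4 helper genes went the other way. Of 12 members, all tested, 5 were at least 2-fold below each control, as were 1.86% of all genes tested, and 0 above. In all, 11 lay below both controls, as did 32.5% of all genes tested, and the median log2 difference was -0.79. Zbtb7b, the deleted gene itself, is counted among the 12, the 5 and the 11. The other settings of the size rule gave 4 to 6 lower members and 0 higher. Tnfsf8, which encodes the ligand of CD30, stood at 167 CPM in the wild type (95% interval 151 to 183), 131 (116 to 148) in the Cre control and 6.51 (4.39 to 9.29) in the deleted library. Its log2 difference was -4.51 ± 0.30, with an edgeR adjusted p of 0.0999 and a DESeq2 adjusted p of 3.44e-15. Cd40lg, the ligand by which helper cells activate B cells and dendritic cells, stood at 163, 131 and 32.5 CPM (log2 difference -2.18 ± 0.24, edgeR adjusted p 0.188). Tnfrsf4, the gene of OX40 whose promoter drives the Cre, stood at 464, 175 and 21.0 CPM, with controls more than 2-fold apart. These ligands and receptors of the tumour necrosis factor family were lowest in the deleted library, as was Tnfsf11, the gene of RANK ligand, at 31.6, 20.3 and 0.651 CPM. Barcodes with at most 50 UMIs held Tnfsf8 at 246, 389 and 11.3 unscaled CPM, in the controls more than the gated cells. They held Cd40lg at 78.1, 71.9 and 5.64, in the controls less than the gated cells. The part of free RNA was not tested. Cd4 itself stood at 180, 169 and 110 CPM, and Icos, a costimulator, at 533, 593 and 349 CPM, both less than 2-fold lower. Cd28, the main costimulatory receptor, did not share the order, at 533, 602 and 595 CPM. Zbtb7b was at least 37.4-fold lower than the mean of the controls, taking 3 UMIs as the floor of the deleted library, at chr3:89377644-89394776 on the minus strand.

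Of 6 helper genes, Cd40lg, Tnfrsf4, Tnfsf8, Maf, Ikzf2 and Tcf7, chosen after their values were seen, 18.1% of thinned wild type cells, 26.2% of Cre control and 79.4% of deleted cells showed none. At least 2 were found in 49.8%, 40.1% and 1.71%. Cells with any of the chosen cytotoxic genes and none of the 6 helper genes made up 5.12%, 6.95% and 69.1%. Cells with at least 1 of each made up 15.3%, 13.9% and 16.6%. By these genes the larger share of the deleted library lay in cells of the first kind, and the mixed share was close to that of the controls. Both sets were picked with the difference between the libraries known, so the split describes it and does not test it. Cd28, a helper list member that was not lower, is not among the 6. Without thinning the first kind made up 0.847%, 2.86% and 51.4% and the mixed kind 38.1%, 41.6% and 44.7%.

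Transcripts of the Tfh programme that were counted in the Cxcr6+ control gate were lower in the deleted library, although the gate had removed cells with a Cxcr5 UMI. Of 22 members 18 were tested, 10 were at least 2-fold lower than each control, as were 1.86% of all genes tested, and 0 higher. Their median log2 difference was -2.26. Under the other settings 7 to 13 were lower and 0 higher. Maf, a transcription factor of Tfh cells and of interleukin 10 producers, stood at 141, 148 and 23.4 CPM (log2 difference -2.62 ± 0.21, edgeR adjusted p 0.140, DESeq2 adjusted p 1.36e-06). Sostdc1, which encodes a secreted antagonist of Wnt and BMP signals, had 97, 50 and 0 UMIs, so that the deleted library was at least 47.3-fold below the mean of the controls. Izumo1r, the gene of folate receptor 4, stood at 110, 62.3 and 6.51 CPM, and Il21, for the cytokine that acts on B cells, at 11.2, 13.5 and 0.651 CPM. Barcodes with at most 50 UMIs, which hold mostly free RNA, held Sostdc1 at 66.2, 162 and 0 unscaled CPM and Izumo1r at 208, 168 and 11.3. In the controls these lay above the gated cells, whereas Maf lay below them, at 71.0, 99.6 and 14.1. The part of free RNA in these differences was not tested. Batf, a factor needed for Tfh development, stood at 440, 402 and 194 CPM. Sh2d1a, for the signalling adaptor SAP, lay on the other side at 278, 294 and 359 CPM, and Pdcd1, the gene of PD-1, at 95.2, 92.7 and 70.7 CPM. Bcl6, the defining Tfh factor, had 12, 1 and 1 UMIs and was not tested.

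The Th1 list as a whole was not shifted. Of 29 members tested, 3 were at least 2-fold higher than each control and 2 lower, beside 1.16% and 1.86% of all genes tested. Above both controls lay 12 and below both 13, beside 33.0% and 32.5% of all genes tested, and the median log2 difference was -0.02. Ccl5, a chemokine of effector T cells and the most abundant member, stood at 2491 CPM in the wild type, 3578 in the Cre control and 11479 in the deleted library (log2 difference 1.92 ± 0.23, edgeR adjusted p 0.204, called in 7 of 11 other settings). A Ccl5 UMI was found in 73.7%, 73.0% and 99.7% of gated cells and in 36.5%, 25.6% and 78.8% of Cxcr5+ Cxcr6- cells. Barcodes with at most 50 UMIs held Ccl5 at 589, 1102 and 10659 unscaled CPM, so these shares are not read as shares of expressing cells. Ly6c2, for a surface protein of effector cells, stood at 608, 644 and 1519 CPM, with reads of its near-identical copy Ly6c1 not securely told apart. The cytokine genes went the other way: Ifng, for interferon gamma, stood at 290, 421 and 128 CPM (log2 difference -1.48 ± 0.29, edgeR adjusted p 0.457) and Tnf had 24, 25 and 4 UMIs. A gated cell had an Ifng UMI in 48.6%, 54.6% and 38.3% of cases. Tbx21, the defining factor T-bet, differed little, at 41.2, 47.3 and 56.2 CPM, as did Lgals1, for galectin 1, at 4539, 5254 and 5451 CPM. The chemokine receptor gene Ccr2 stood at 78.6, 65.6 and 154 CPM. Stat4, which carries the interleukin 12 signal, stood at 295, 206 and 141 CPM. Of the other chemokine genes, Ccl3 stood at 49.7, 75.8 and 74.6 CPM and Ccl4 at 72.1, 349 and 401 CPM, both near the Cre control. The members 2-fold higher were thus Ccl5, Ly6c1 and Ly6c2, and those 2-fold lower Ifng and Tnf.

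Among transcription factors and lineage repressors 4 of 21 tested members were at least 2-fold lower and 0 higher, with Zbtb7b 1 of the 4. By the same rule 1.86% of all genes tested were lower and 1.16% higher. Tcf7, which encodes TCF-1, a factor of memory-like and Tfh cells, stood at 176, 114 and 34.3 CPM. Ikzf2, for the factor Helios, stood at 131, 81.1 and 13.4 CPM, and Id3, an inhibitor of E proteins, at 18.5, 24.1 and 3.25 CPM. Its counterpart Id2 stood at 495, 669 and 793 CPM, and Ikzf1, for Ikaros, at 153, 195 and 192 CPM. Foxp3, the factor of regulatory T cells, had 2, 3 and 4 UMIs. Helios was thus lower in cells in which the regulatory factor itself was all but uncounted in each library. In the list of regulatory, Th2 and Th17 genes 5 of 16 members were tested and 2 were 2-fold lower, Ikzf2 and Il1rl1, the interleukin 33 receptor, at 22.4, 17.4 and 4.77 CPM. Rora stood at 429, 371 and 251 CPM and Ctla4 at 247, 275 and 169 CPM.

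Inhibitory receptors showed no common order, with 2 of 12 tested members 2-fold higher, Cd160 and Klrg1, and 0 lower. For this and the next lists, the shares over all genes tested were 1.16% higher and 1.86% lower. Lag3, which binds class II molecules, stood at 55.1, 48.3 and 98.3 CPM, and Vsir, for VISTA, at 146, 143 and 142 CPM. In the memory and homing list 1 of 18 tested members was 2-fold higher, S1pr5, a receptor that guides effector cells, with 0, 3 and 29 UMIs, and 2 were lower, Tcf7 and Id3. Ly6a stood at 885, 845 and 567 CPM and Itgb7, an integrin of gut homing, at 586, 546 and 427 CPM. Of 20 cell cycle genes 0 were 2-fold higher or lower, and the median log2 difference was -0.26. Below both controls lay 13 and above both 2, beside 32.5% and 33.0% of all genes tested. Hmgb2 stood at 3202, 3264 and 3160 CPM and Stmn1 at 558, 629 and 610 CPM, while Aurka, a mitotic kinase, stood at 26.2, 28.0 and 16.7 CPM. Of 16 glycolysis genes 0 differed 2-fold, with Gapdh at 1061, 1713 and 1607 CPM and Ldha at 1253, 1234 and 976 CPM.

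In the list of early response genes 8 of 13 tested members lay below and 1 above both controls, beside 32.5% and 33.0% of all genes tested. By the size rule, which 1.86% of all genes tested met as lower and 1.16% as higher, 1 member was lower and 0 higher. That member was Nfkbia, the inhibitor that NF-kappaB itself induces, at 1763, 1776 and 591 CPM (log2 difference -1.58 ± 0.16, edgeR adjusted p 0.154, DESeq2 adjusted p 0.000536). Nr4a1, an early gene of receptor signalling, stood at 273, 347 and 139 CPM, and its relative Nr4a2 at 104, 106 and 131 CPM. In the list of genes that tissue handling can induce, 3 of 12 tested members were 2-fold lower, Junb at 1260, 1147 and 501 CPM, Jun at 77.5, 110 and 35.1 CPM and Zfp36 at 47.0, 65.6 and 18.2 CPM, while 4 of the 12 differed 2-fold between the controls. Hsp90aa1, a heat shock protein gene, stood at 724, 764 and 515 CPM. The part of sample handling in these differences was not tested. Of 12 tested interferon-induced genes 3 were 2-fold lower, Rsad2, Oasl2 and Isg20, the last at 29.3, 30.9 and 11.3 CPM, and Ifi27l2a stood at 2074, 1793 and 1157 CPM and Ifi203 at 249, 227 and 205 CPM.

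Outside the lists the largest difference was that of Wdr95, a WD repeat gene at chr5:149528679-149611894 on the plus strand, with 3, 4 and 447 UMIs or 1.16, 1.93 and 97.0 CPM (log2 difference 5.97 ± 0.35, edgeR adjusted p 0.0999, DESeq2 adjusted p 2.66e-10). As3mt, a methyltransferase gene, stood at 1.16, 0.965 and 15.8 CPM and Mid1, a ubiquitin ligase gene on the X chromosome, at 0.385, 0.965 and 10.6 CPM. On the lower side Ifitm3, for a membrane protein that limits virus entry, stood at 71.3, 70.0 and 2.39 CPM (log2 difference -4.86 ± 0.31, edgeR adjusted p 0.0999). Its neighbour Ifitm2 had 73, 43 and 10 UMIs, both on chromosome 7, at chr7:141009586-141010770 and chr7:140954837-140955987 on the minus strand. Areg, for the growth factor amphiregulin, stood at 43.9, 32.3 and 1.74 CPM, Ifi204, of a family of near-identical copies, with 90, 56 and 7 UMIs and Fam43a at 13.9, 11.1 and 0.434 CPM. In each of these genes the deleted library lay more than 2-fold from either control, and at Mid1, with few UMIs, the controls also differed.

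Mir155hg, the host transcript of the microRNA miR-155 and a target of antigen receptor signals, stood at 78.6, 80.6 and 13.2 CPM and was called lower in 7 of 11 other settings, named here after its values were seen. The mature form carried by its transcript is shown because the host is what these libraries count; the microRNA itself was not measured. It lies at chr16:84714143-84714165 on the plus strand of GRCm38.p6, from RefSeq, with its seed in capitals.
miR-155-5p: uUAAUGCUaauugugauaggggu

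The edge of the gate lies between 0 and 1 Cxcr6 UMI, and values on either side are given here without a test, as unscaled CPM. Among cells with no Cxcr5 UMI, Ccl5 stood at 381 with 0 Cxcr6 UMIs and at 1998 with 1 in the wild type, at 505 and 3653 in the Cre control and at 10136 and 10884 in the deleted library. Gzmb stood at 56.5 and 434 in the wild type, 86.3 and 595 in the Cre control and 1122 and 1255 in the deleted library. In the controls both genes were several times higher just inside the gate, whereas the deleted library was nearly level across its edge. Gzma was at 5.75 and 131, 6.75 and 63.4, and 664 and 506. Tcf7 was lower the more Cxcr6 UMIs a cell held in each library, from 550 with 0 to 55.5 with 3 or more in the wild type, from 501 to 67.0 in the Cre control and from 70.9 to 18.3 in the deleted library. Tnfsf8 had the same order, from 518 to 88.4, from 559 to 71.2 and from 17.5 to 1.72. Maf showed no such order in any library, standing in the deleted one between 13.4 and 30.9. The 604 deleted cells with neither receptor UMI thus lay near the gated deleted cells at Ccl5, Gzmb and Gzma.

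**Figure D5:**
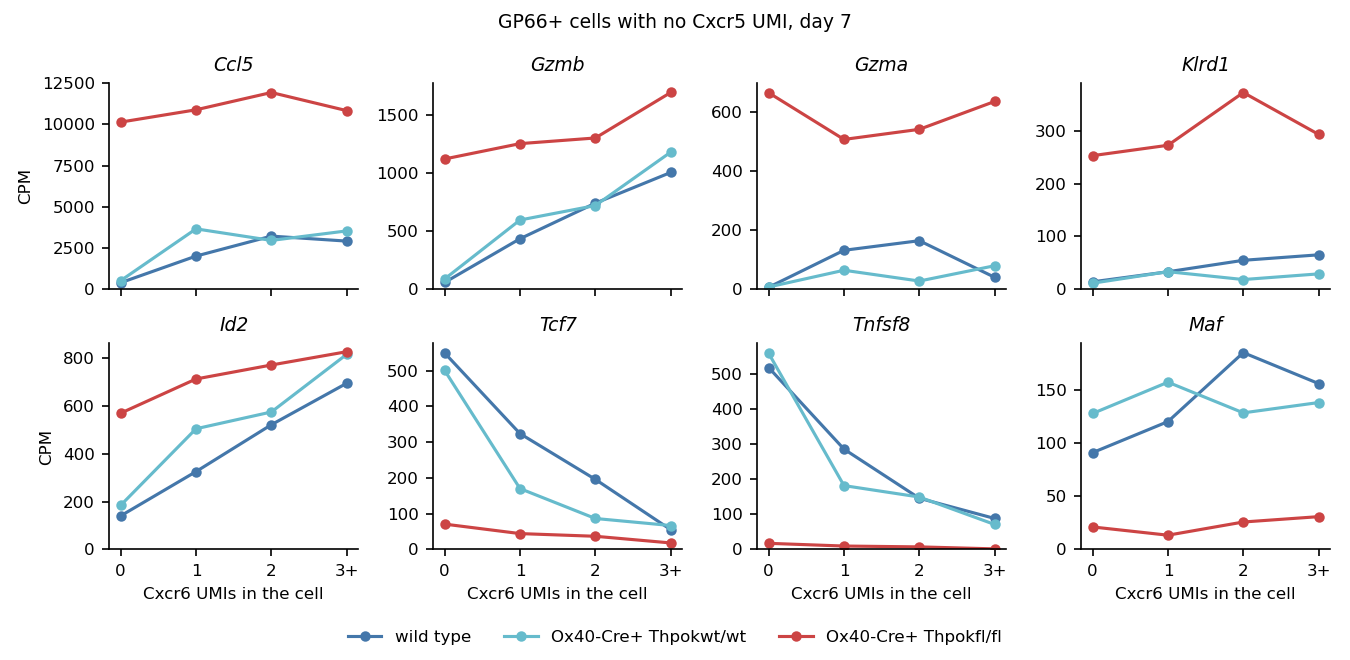
Unscaled CPM of 8 genes in GP66+ cells with no Cxcr5 UMI, by the number of Cxcr6 UMIs in the cell (x axis), 1 line for each library. Ccl5 is at 10136 in deleted cells with 0 Cxcr6 UMIs, where the controls are at 381 and 505.

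Differences in the Cxcr6+ cells were set against those of Cxcr5+ Cxcr6- cells of the same libraries in 1 edgeR model with the library as block. The fit had 1 residual degree of freedom. Both gates were cut on Cxcr6 and Cxcr5 UMIs of these same cells, and in the controls that cut by itself separates genes such as Gzmb. The interaction therefore cannot settle whether a difference belongs to the Cxcr6+ cells. The interaction of gate and genotype passed an adjusted p of 0.05 at 55 of 9927 genes (0.554%), 2 higher and 53 lower, with 410 and 417 genes at an unadjusted p under 0.05. A lower value means that the log2 difference of the deleted library from the controls was lower in the Cxcr6+ gate than in the Cxcr5+ gate. The genes with lower values include some, such as Ifng, where the deleted library lay below both controls in the Cxcr6+ gate. Ifng stood there at 285, 413 and 125 CPM. Gzmb, named after its values were seen, stood at 692 CPM in the Cxcr6+ and 4.58 in the Cxcr5+ gate of the wild type, at 879 and 2.58 in the Cre control and at 1449 and 360 in the deleted library (interaction log2 -5.64 ± 0.32). Ccl5 stood at 2454 and 172, 3507 and 154, and 11271 and 6792 CPM (interaction log2 -3.42). Nkg7 stood at 1595 and 442, 1705 and 386, and 2878 and 2506 CPM. Counts of Gzmb, Ccl5 and Nkg7 were thus also higher in the deleted cells that held a Cxcr5 UMI, and relative to the controls more so there. Barcodes with at most 50 UMIs in the deleted library held Gzmb at 1386 and Ccl5 at 10659 unscaled CPM, more than its Cxcr5+ gate. The part of free RNA was not tested. The Cxcr5+ gate of the deleted library held 33 cells and 219191 UMIs, 1 of them with a B cell or myeloid UMI. DESeq2 called 1 gene higher and 27 lower, thinned cells gave 15 and 7, and all other GP66+ cells in place of the Cxcr5+ gate gave 351 and 623, so the count depends on the cells compared.

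Libraries of day 30, which the gate's choice did not use, gave the same comparison with fewer cells. The gate held 64 of 725 cells (8.83%, exact 95% interval 6.86 to 11.1) in Ox40-Cre+ Thpokwt/wt RosaYFP+ mice and 311 of 736 (42.3%, 38.7 to 45.9) in Ox40-Cre+ Thpokfl/fl RosaYFP+ mice, with 149614 and 933844 UMIs. With 1 library on each side there is no test. Of 5171 genes with at least 20 UMIs, 670 (13%) were 2-fold higher and 223 (4.31%) 2-fold lower in the deleted library. The minimum of UMIs is reached mostly through the deeper deleted library. Of the 106 genes 2-fold higher at day 7, 44 reached it, 32 of them were 2-fold higher at day 30 and 0 lower. Of the 170 lower genes 66 reached it, 24 were lower again and 5 higher. B cell or myeloid UMIs were found in 0 control and 16 deleted gated cells. The haemoglobin genes Hbb-bs and Hba-a1 had 0 UMIs in the control and 143 and 84 in the deleted library, and the heat shock gene Hspa1a stood at 37.3 and 300.1 CPM. Their part in the differences was not tested.

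Granzyme genes were again higher at day 30. Gzma had 0 UMIs in the control and stood at 1475 CPM in the deleted library, at least 65.9-fold higher with 3 UMIs as the floor, and Gzmb stood at 37.3 and 398 CPM. Klrk1 stood at 112 and 310 CPM, Ccl5 at 8549 and 25001 and Nkg7 at 850 and 2412. Members of the helper list were mixed. Cd40lg stood at 358 and 141 CPM, Tnfrsf4 at 186 and 60.2 and Icos at 888 and 428, all 2-fold lower. In contrast Gata3 stood at 37.3 and 78.9, just past 2-fold higher, Cd6 at 127 and 187 and Tox at 89.5 and 111. The control values of Gata3 and Gzmb rest on 5 UMIs each. Outside that list Maf stood at 209 and 77.9 CPM, Tcf7 at 209 and 68.5 and Mir155hg at 82.1 and 16.6. Several genes that were low at day 7 were not 2-fold lower at day 30: Tnfsf8 stood at 306 and 169 CPM, Sostdc1 at 82.1 and 45.7, Ikzf2 at 97.0 and 113, Ifng at 395 and 382 and Nfkbia at 1082 and 901. The difference between days was not tested. An edgeR fit over the same gate in all 5 GP66+ libraries, with day and genotype as terms and 2 residual degrees of freedom, called 13 genes higher and 5 lower of 8836 tested. Eomes passed with a log2 difference of 5.33 ± 0.42 (adjusted p 0.0144), Ifitm3 with -4.72 (0.0214), Wdr95 with 5.46 (0.0306), Ccl5 with 1.82 (0.0340) and Gzmk with 2.70 (0.0474). Cd8a, Klrk1, Cd160, Mir155hg and Ifi204 passed with an adjusted p of 0.0333 each. Gzma, with a log2 difference of 3.80, had an adjusted p of 0.107 in this edgeR fit.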

How the data were processed

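UMI counts per gene and barcode were deposited by the authors with no normalization, per the file headers and values, for 7 libraries. They were made with the 10x Single Cell 3' version 2 kit, per the labels' protocols, and the submitters' processing notes name bcl2fastq 2.17, the build mm10 and Cell Ranger, whose version they leave out. Barcodes were kept as cells with 500 or more genes and no more than 10% of UMIs from mitochondrial genes. No doublet caller was run, so cells with UMIs of 2 cell types may be doublets. UMIs of cells with at least 1 Cxcr6 and no Cxcr5 UMI were summed per library. The sums were tested with edgeR 4.0.16 (limma 3.58.1, R 4.3.3): TMM, filterByExpr, glmQLFit and glmQLFTest, Benjamini-Hochberg at 0.05 over all genes tested. The deleted library was set against both controls and is assumed to vary like them. Cxcr6 and Cxcr5 were left out of the calls.

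Size differences used log2 CPM with a prior count of 2. The interaction model had the library as block. CPM of the gated cells are TMM-scaled over the 3 sums, those of the 2 gates over 6 sums, and those of cell classes are unscaled CPM. Shares were also computed after thinning each cell to 2000 UMIs. DESeq2 1.42.0 and other gates, scalings and filters were alternatives, and leaving out cells with a UMI of Cd74, H2-Aa, Cd79a or Lyz2 was chosen after the data were seen. Intervals are exact binomial and Poisson ones and cover counting error only. Figures and tables used Python 3.11.15, numpy 2.4.6, scipy 1.17.1, pandas 2.3.3 and matplotlib 3.10.9. The fits were checked on simulated counts. Gene positions come from GENCODE vM21 (GRCm38), promoters and the microRNA from RefSeq (GRCm38.p6).

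The members and the 18 lists were chosen with earlier results of these data known. Genes named are Zbtb7b and the gate genes, per list the 2 members with the highest mean CPM, and per direction the 8 largest gaps to the nearer control among genes with at least 50 UMIs in the 3 libraries, since no gene was called. Others were chosen after their values were seen. Ighm, Trdc and the gamma chain genes of the lists are not analysed here. The total CD44high libraries entered the count of cells alone. Some members of the lists are counted but not reported here by name.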

Additional observations from a re-analysis of the deposited data

Results flagged for a closer look

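The genes below passed an adjusted p of 0.05 for the interaction of genotype with the Cxcr6+ Cxcr5- and Cxcr5+ Cxcr6- gates in edgeR's quasi-likelihood fit. The fit had 1 residual degree of freedom, and the gates were cut on UMIs of these same cells. It therefore cannot settle whether the effect of deletion differs between the gates. Values are CPM in the Cxcr6+ and then the Cxcr5+ gate. Rnaset2a had an interaction log2 of 1.40, with 26.2 and 57.8 in the wild type, 177 and 369 in the Cre control and 196 and 157 in the deleted library. Its controls differed by far more than 2-fold in either gate. It had an adjusted p of 0.682 in DESeq2 and 0.647 in thinned cells. Actb, for beta-actin, had an interaction log2 of 0.57, with 9212 and 8629, 10635 and 10417, and 11534 and 7429.

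Of the class II antigen presentation genes, H2-Aa had an interaction log2 of -11.9. It stood at 18.2 and 0.208 in the wild type, 2.36 and 0.322 in the Cre control and 0.426 and 46.1 in the deleted library. Cd74, the invariant chain, had -10.4, with 53.9 and 4.99 in the wild type, 5.20 and 4.83 in the Cre control and 0.639 and 143 in the deleted library. H2-Ab1 had -7.43, with an adjusted p of 0.251 in DESeq2. Of the 33 deleted cells in the Cxcr5+ gate 1 held a UMI of Cd74, H2-Aa, Cd79a or Lyz2. That 1 cell thus held all 10 UMIs of H2-Aa and all 31 of Cd74 in the gate, which also held 6 UMIs of H2-Ab1.

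Ermn had an interaction log2 of -8.08, with 22.4 and 0.208 in the wild type, 24.1 and 0.644 in the Cre control and 2.77 and 13.8 in the deleted library. Its Cxcr5+ values rest on 1, 2 and 3 UMIs. Ifitm1, a member of the Ifitm family, had -6.75, with 41.8 and 0.416, 36.9 and 0, and 52.2 and 41.5. Its Cxcr5+ values rest on 2, 0 and 9 UMIs. In thinned cells its interaction log2 was 0.35.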

How the results depend on the processing

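No paired analysis was possible because each genotype of day 7 is 1 library, so that the groups share no set of replicate numbers. The count of genes differing by genotype, 0 higher and 0 lower in edgeR, stayed at 0 with DESeq2 size factors, with any Cxcr5 UMI count, with at most 5% mitochondrial UMIs and with a stricter cell call. It was 143 and 182 with no filter on low counts, 14 and 27 with DESeq2, 16 and 17 with at least 2 Cxcr6 UMIs, 13 and 30 in thinned cells, 9 and 14 without Cd8 UMIs, 11 and 15 without B cell or myeloid UMIs and 13 and 5 over 5 libraries. Without 1 control library the edgeR fits have no residual degrees of freedom and could not be fitted. The count past 2-fold ranged then from 240 to 576 higher (main 106) and from 262 to 435 lower (main 170). Its other settings gave 83 to 158 higher and 134 to 204 lower, and of the 106 and 170 genes 54 and 84 were shared in thinned cells, the setting with the fewest. The interaction, 2 higher and 53 lower, gave 1 and 27 with DESeq2, 12 and 85 with no filter, 351 and 623 against all other GP66+ cells, 15 and 85 without B cell or myeloid UMIs and 15 and 7 in thinned cells. The cause of these shifts was not tested.

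Gate shares moved with depth and threshold: 9.75%, 8.80% and 26.8% in thinned cells and 9.60%, 8.39% and 29.6% with at least 2 Cxcr6 UMIs in the wild type, Cre control and deleted library, and 34.6% in the deleted library without Cd8 UMIs. Of 801 pairs of a named gene and a setting, 612 kept direction and side of 0.05, 182 passed it, and 7 turned direction from log2 differences of -0.03, 0.04 and -0.02: Hmgb2 0.026 with any Cxcr5 and 0.24 over 5 libraries, Stmn1 -0.12 with at least 2 Cxcr6 UMIs and -0.016 in thinned cells, and Vsir 0.025 with at least 2 Cxcr6 UMIs, 0.0153 without Cd8 UMIs and 0.033 over 5 libraries. The interaction of Ifitm1 turned to 0.35 in thinned cells. Depth limits the genes under about 50 UMIs and the day 30 control, where 1 UMI is 7.46 CPM.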

Other observations

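Genes that met the size rule outside the lists included neighbours with like differences, described here after their values were seen. Ctla2a and Ctla2b, near-identical inhibitors of cysteine proteases at chr13:60934155-60936625 and chr13:60895350-60897447, stood at 130, 189 and 682 CPM and at 27.8, 31.9 and 114 CPM in the wild type, Cre control and deleted library. Gzma at chr13:113093825-113100981, Gzmk at chr13:113171608-113225908 and Esm1 at chr13:113209659-113218098 also lie side by side. P2ry12, a purine receptor, at 3.08, 1.45 and 13.0 CPM, lies inside Med12l, at 3.08, 2.90 and 9.33 CPM, on the opposite strand. Ugcg, a glycolipid synthase, stood at 33.9, 43.9 and 118 CPM and Susd1, its neighbour on chromosome 4, had 14, 4 and 79 UMIs. On the lower side Nfkbiz, an NF-kappaB cofactor, stood at 370, 398 and 105 CPM, Rgs10, a regulator of G protein signals, at 140, 94.1 and 19.7 CPM and Cdkn1a, the cell cycle inhibitor p21, at 117, 104 and 31.9 CPM.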
